A study of Mus musculus with 4 samples.

Results

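The 6 mouse Dlx genes lie in 3 pairs of neighbours, and each pair was examined as 1 window of the genome in 2 lists of H3K27me3 peaks. The windows (build mm9) were chr2:71330001-71410000 for Dlx1 and Dlx2, chr6:6780001-6870000 for Dlx5 and Dlx6, and chr11:94950001-95040000 for Dlx3 and Dlx4. The windows are fixed stretches around the genes, and every peak overlapping one was taken. Together they held 16 of the 20024 peaks of the bone marrow list and 21 of the 31847 peaks of the fetal liver list.

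The bone marrow list came from lineage-negative progenitors of 8-week-old C57BL/6 mice, which are blood cells without the surface markers of mature lineages. The fetal liver list came from lineage-negative C57BL/6 cells of embryonic day 14.5, when the liver is the main site of blood formation. Both populations carried a lentivirus for NOTCH1ΔE (N1dE), a truncated, active NOTCH1 known to drive T-cell leukaemia. Transduced cells were sorted for the viral GFP after 3 days of culture. Untransduced cells were not analysed here, so both lists describe NOTCH1-driven progenitors. Native chromatin immunoprecipitation, on chromatin cut with micrococcal nuclease, was followed by sequencing. Peaks were called by the authors on merged libraries against input, with 1 list for each cell type. The values below therefore have no replicate error, no test between cell types was possible, and the read depth behind them is unknown. The cell types could not be checked against marker genes, since the lists hold peaks and no expression.

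Dlx genes encode homeodomain transcription factors related to Distal-less of Drosophila. Dlx1, Dlx2, Dlx5 and Dlx6 act in the development of forebrain inhibitory neurons and of the jaw. Dlx5 and Dlx6 also act in limb and bone, and Dlx3 in skin, hair, tooth and placenta. Dlx4 is the least studied member, and it is known from the placenta. H3K27me3, trimethylation of lysine 27 on histone H3, is laid down by Polycomb repressive complex 2 and covers developmental regulators in cells that do not use them, usually starting at CpG-rich promoters. The pairs arose by duplication and each lies on the same chromosome as a Hox cluster. In the RefSeq gene table (GRCm38.p6) all 6 members were found, no coding gene lay between the members of a pair, and the coding neighbours were Metap1d and Itga6 for Dlx1 and Dlx2, Sem1 and Sdhaf3 for Dlx5 and Dlx6, and Itga3 and Tac4 for Dlx3 and Dlx4. Non-coding genes also lay within each pair, among them Dlx1as, Dlx6os1 (also called Evf2) and Dlx4os. Gene starts on mm9 were not used here, so values belong to a pair and not to one of its members.

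CpG content is shown first because Polycomb domains are known to form on such sequence. Promoter sequences (RefSeq, GRCm38.p6) were at hand for 2 of the 6 members, Dlx1 and Dlx2. The 250 bases before each start are given from 5′ to 3′ on the gene's strand, with every CpG in capitals. Their coordinates are on GRCm38.p6 and cannot be set on the mm9 peaks. They are chr2:71529195-71529444 on the plus strand for Dlx1 and chr2:71546755-71547004 on the minus strand for Dlx2.
Dlx1: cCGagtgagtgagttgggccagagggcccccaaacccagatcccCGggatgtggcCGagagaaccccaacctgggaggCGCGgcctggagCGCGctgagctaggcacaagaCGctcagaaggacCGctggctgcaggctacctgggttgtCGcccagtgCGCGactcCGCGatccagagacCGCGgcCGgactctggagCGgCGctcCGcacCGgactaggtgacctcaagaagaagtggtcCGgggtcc
Dlx2: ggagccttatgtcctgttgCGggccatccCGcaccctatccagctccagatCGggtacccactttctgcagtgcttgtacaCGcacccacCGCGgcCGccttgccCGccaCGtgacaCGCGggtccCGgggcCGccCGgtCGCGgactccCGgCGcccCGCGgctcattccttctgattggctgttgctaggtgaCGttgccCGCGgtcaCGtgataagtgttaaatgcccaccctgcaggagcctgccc
The motif searched was CG, which reads the same on both strands. The Dlx1 promoter held 22 CpGs and the Dlx2 promoter 24, against a median of 6 over 32851 promoters of the same length. At least as many as in Dlx1 were found in 14.8% of those promoters, and at least as many as in Dlx2 in 12.0%. Both promoters thus lay in the CpG-rich part of the range, together with many others. G and C made up 68.0% of the Dlx1 and 66.4% of the Dlx2 sequence, against a median of 52.4%.

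All 3 pairs carried a broad H3K27me3 domain in both cell types, and the pairs differed in how alike the domains of the cell types were. Over Dlx1 and Dlx2 peaks covered 36.8 kb of the 80 kb window in bone marrow, against 34.8 kb in fetal liver. Over Dlx5 and Dlx6 they covered 35.7 kb of 90 kb in bone marrow, against 45.8 kb in fetal liver. Over Dlx3 and Dlx4 they covered 34.5 kb of 90 kb in bone marrow, against 46.7 kb in fetal liver. The bone marrow coverage was thus nearly the same over the 3 pairs, whereas the fetal liver coverage was smaller over Dlx1 and Dlx2 than over the others. The ratio of covered bases, bone marrow over fetal liver, was 1.06 at Dlx1 and Dlx2, 0.78 at Dlx5 and Dlx6, and 0.737 at Dlx3 and Dlx4. Over the whole lists the same ratio was 0.664, so all 3 lay above it.

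Bases marked in bone marrow were nearly all marked in fetal liver too. Of the bone marrow bases, 91.9% lay in fetal liver peaks at Dlx1 and Dlx2, 97.7% at Dlx5 and Dlx6 and 96.7% at Dlx3 and Dlx4. Of the fetal liver bases, 97.2%, 76.2% and 71.3% lay in bone marrow peaks at the same pairs. Bases in bone marrow peaks alone came to 2.98, 0.813 and 1.14 kb, and bases in fetal liver peaks alone to 0.969, 10.9 and 13.4 kb. Of the bases in fetal liver peaks alone, 1.72 kb at Dlx5 and Dlx6 and 5.00 kb at Dlx3 and Dlx4 lay in gaps inside the bone marrow domains (peaks at most 3 kb apart joined), and 9.17 and 8.43 kb lay outside them. Counted by peaks, 14 of the 16 bone marrow peaks overlapped a fetal liver peak, where 68.0% did so in the whole list, and 10 of the 21 fetal liver peaks overlapped a bone marrow peak, where 39.8% did so. Width differed among these peaks, with 7 of 16 in bone marrow and 8 of 21 in fetal liver below the median width of their list, and a wider peak is more easily hit. These shares were therefore not read as closer agreement.

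**Figure D1:**
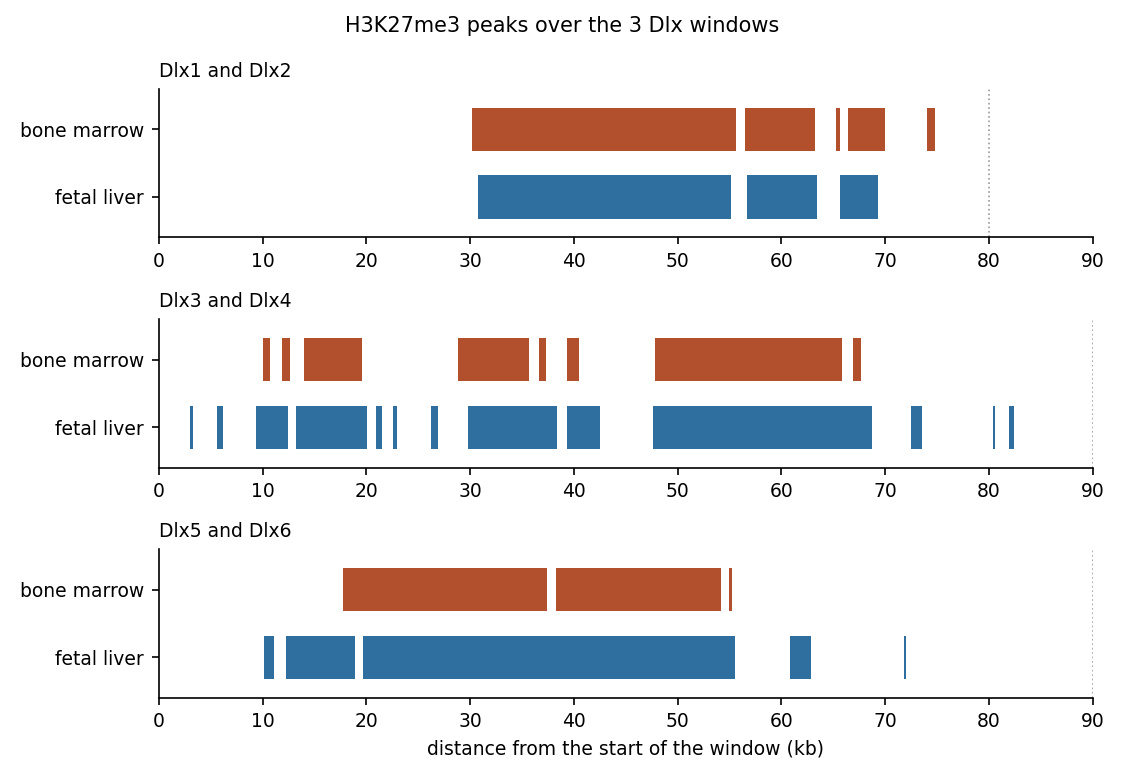
H3K27me3 peaks (filled blocks) over the windows of the 3 Dlx pairs, with bone marrow above fetal liver; the x axis is the distance in kb from the start of the window, and the dotted line marks its end. Over Dlx1 and Dlx2 the joined domains of both lists begin and end within 1 kb of each other, with a short bone marrow block beyond them, over Dlx5 and Dlx6 the fetal liver domain starts 7.63 kb earlier, and over Dlx3 and Dlx4 both lists are broken into several blocks.

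Dlx1 and Dlx2 shared 1 domain with closely matching outer edges in the lists as deposited. With peaks of a list at most 3 kb apart joined, the domain ran from 71360223 to 71399947 in bone marrow (39.7 kb) and from 71360807 to 71399345 in fetal liver (38.5 kb). The left edges were 584 bp apart and the right edges 602 bp apart, with bone marrow reaching further on both sides. The match included fetal liver peaks of low score. With peaks of a fold enrichment of at least 2 the fetal liver domain was 12.6 kb wide and the ratio of covered bases 3.54. The median fold enrichment of the whole list was 1.93 in fetal liver, below that cut, and 2.12 in bone marrow, above it. No fetal liver peak here had a −log10 q as high as 2. Each list had a main peak at the left, 25.4 kb wide in bone marrow, against 24.4 kb in fetal liver, followed by one of 6.75 kb in bone marrow, against 6.69 kb in fetal liver. The gap between these peaks was 869 bp wide in bone marrow and 1550 bp in fetal liver, and no fetal liver peak entered the bone marrow gap. A second gap followed, of 2042 bp in bone marrow and 2229 bp in fetal liver, and here 9.21% of the bone marrow gap was marked in fetal liver. Both breaks therefore fell at the same places in both cell types. The last part of the domain was a fetal liver peak of 3.70 kb, and in bone marrow a short peak of 333 bp and one of 3.52 kb.

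Some of the mark at Dlx1 and Dlx2 was seen in bone marrow alone. The 333 bp peak, at chr2:71395270-71395602, lay in the second fetal liver gap and had the highest fold enrichment of the 37 Dlx peaks, 6.21 over input, with a −log10 q of 7.39. In its list it stood above 99.95% of peaks by fold enrichment. The fetal liver gap around this peak ended at 71395644, close to the right end of the peak, and lay inside the joined fetal liver domain. A peak of 783 bp at chr2:71404027-71404809, 4.08 kb beyond the domain, had a fold enrichment of 3.42 and no fetal liver counterpart. The caller averages the enrichment over a peak, so values of short and wide peaks are not on an equal footing. On the left the domain was isolated, with the nearest peak 69.9 kb away in bone marrow and 72.9 kb away in fetal liver.

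Dlx5 and Dlx6 shared the right end of a domain that started further left in fetal liver. The domain ran from 6797727 to 6835197 in bone marrow (37.5 kb) and from 6790100 to 6835553 in fetal liver (45.5 kb). The right edges lay 356 bp apart and the left edges 7627 bp apart. The added stretch in fetal liver consisted of a peak of 6.65 kb with a fold enrichment of 2.01, all but 1169 bp of it free of bone marrow peaks, and of a weak one of 1.01 kb with a fold enrichment of 1.09. The core of the domain was 1 peak of 35.8 kb in fetal liver, the 23rd widest of that list. In bone marrow it was broken by a gap of 895 bp into peaks of 19.7 and 15.9 kb, and a peak of 202 bp stood at the right end. The fetal liver peaks had no break at that position, and their own gap of 813 bp was filled in bone marrow.

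The domain over Dlx5 and Dlx6 stood alone in its surroundings. The nearest bone marrow peaks lay 241.2 kb to the left and 668.9 kb to the right. In fetal liver the nearest peak to the left was 189.35 kb away, and to the right a peak of 2.07 kb followed after 5.27 kb and one of 252 bp further on, neither with a bone marrow counterpart. No base of the 100 kb before the window was covered in either list, and of the 100 kb after it 0% was covered in bone marrow and 0.579% in fetal liver.

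Dlx3 and Dlx4 were marked in a broken pattern instead of a single domain. Joining within 3 kb left 3 domains in bone marrow and 6 in fetal liver, and the widest was only 19.8 kb in bone marrow, against 21.1 kb in fetal liver. This widest domain ran from 94997860 to 95017694 in bone marrow and from 94997647 to 95018715 in fetal liver. Its left edges were 213 bp apart and its right edges 1021 bp apart. The other shared blocks were 9.54 kb in bone marrow against 13.6 kb in fetal liver, and 11.7 kb in bone marrow against 16.2 kb in fetal liver. In each of these 3 blocks bone marrow peaks covered fewer bases, 18.7, 7.08 and 8.66 kb in the order given, against 21.1, 10.8 and 12.3 kb in fetal liver. The bone marrow blocks were separated by stretches of 9.20 and 7.32 kb without a peak, of which fetal liver peaks filled 21.5% and 29.3%. Of the 13 fetal liver peaks here, 8 short ones of 200 to 1049 bp met no bone marrow peak. In the whole fetal liver list 39.8% of peaks met one, so most peaks of that list met none either.

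Unlike the other pairs, Dlx3 and Dlx4 lay among other marked regions. In the 100 kb before the window 12.5% of bases were covered in bone marrow and 26.7% in fetal liver, and in the 100 kb after it 7.36% in bone marrow and 33.9% in fetal liver. Around Dlx1 and Dlx2 the same flanks were covered for 5.59% and 1.03% in bone marrow and for 2.27% and 1.25% in fetal liver. The greater fetal liver coverage at Dlx3 and Dlx4 was thus found in the flanks as well as in the window.

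Bins of 5 kb on a fixed grid gave a similar picture. Bone marrow, however, filled fewer of them at Dlx3 and Dlx4 than at the other pairs. A bin was counted as filled when at least 50% of its bases lay in peaks. Of all 39677 bins of the genome with a peak base, 15.6% were filled in bone marrow, 23.2% in fetal liver and 13.1% in both. Over Dlx1 and Dlx2 the same 8 of 16 bins were filled in both lists. Over Dlx5 and Dlx6 7 of 18 bins were filled in both lists and 2 more, at the left end, in fetal liver alone. In these 2 bins bone marrow peaks covered 0% and 45.5% of bases. Over Dlx3 and Dlx4 5 of 18 bins were filled in both and 3 more, scattered along the window, in fetal liver alone. In these 3 bins bone marrow peaks covered 49.3%, 38.9% and 31.3% of bases, so bone marrow marked them below the limit. With 10 kb bins 44.4% were filled over Dlx3 and Dlx4 in each list. No bin of the 3 windows was filled in bone marrow alone. Over the genome 6178 bins were filled in bone marrow, 9219 in fetal liver and 5185 in both, so bins filled in a single list occur for both cell types. The windows were placed on the genes and include empty ground, which the genome shares leave out. Their share of filled bins is therefore a property of the windows too.

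**Figure D2:**
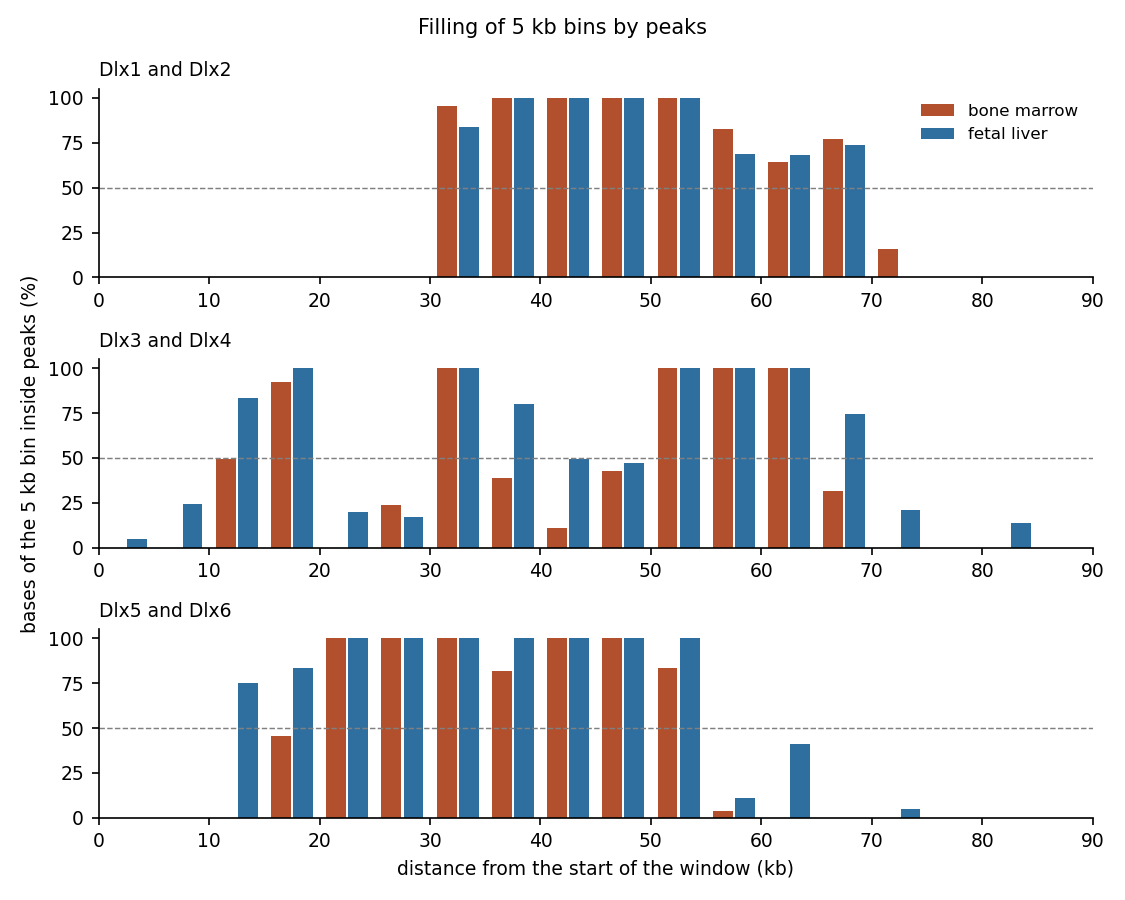
Share of each 5 kb bin that lies in peaks (y axis, %) along the windows of the 3 Dlx pairs (x axis, kb from the window start), with bone marrow bars left of fetal liver bars and a dashed line at 50%. Along Dlx1 and Dlx2 the same bins pass 50% in both lists, though the heights of some bars differ. Fetal liver bars reach further left at Dlx5 and Dlx6, and they are higher at 3 scattered bins of Dlx3 and Dlx4 that pass 50% in that list alone.

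The authors' fold enrichment was on average higher in the bone marrow peaks of all 3 pairs, also where their coverage was smaller. An exception was the widest bone marrow peak of Dlx5 and Dlx6, at 2.08, against 2.13 in the widest fetal liver peak there. Weighted by peak width, the mean fold enrichment at Dlx1 and Dlx2 was 2.58 in bone marrow and 1.90 in fetal liver. At Dlx3 and Dlx4 it was 2.45 in bone marrow and 1.86 in fetal liver. At Dlx5 and Dlx6 it was 2.27 in bone marrow and 2.11 in fetal liver. The median of all peaks was 2.12 in the bone marrow list and 1.93 in the fetal liver list, so a lower value in fetal liver is also a feature of its list. For that reason the wide peaks were ranked within their own list. Among the 454 bone marrow peaks of at least 10 kb, the main peak of Dlx1 and Dlx2, with a fold enrichment of 2.50, stood above 89.4%. Among the 676 fetal liver peaks of that width its counterpart, at 1.82, stood above 11.7%.

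The widest peak of Dlx3 and Dlx4 was ordered in the same way, and that of Dlx5 and Dlx6 was not. At Dlx3 and Dlx4 the widest peak had a fold enrichment of 2.42 in bone marrow, above 81.7% of the wide peaks of its list, and of 1.84 in fetal liver, above 14.5%. At Dlx5 and Dlx6 the bone marrow peaks of 19.7 and 15.9 kb had 2.08 and 2.49, above 25.6% and 88.5% of wide peaks, and the fetal liver peak of 35.8 kb had 2.13, above 77.1%. These ranks come from lists of different length and describe the place of a peak in its own list; the difference between the lists was not tested.

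**Figure D3:**
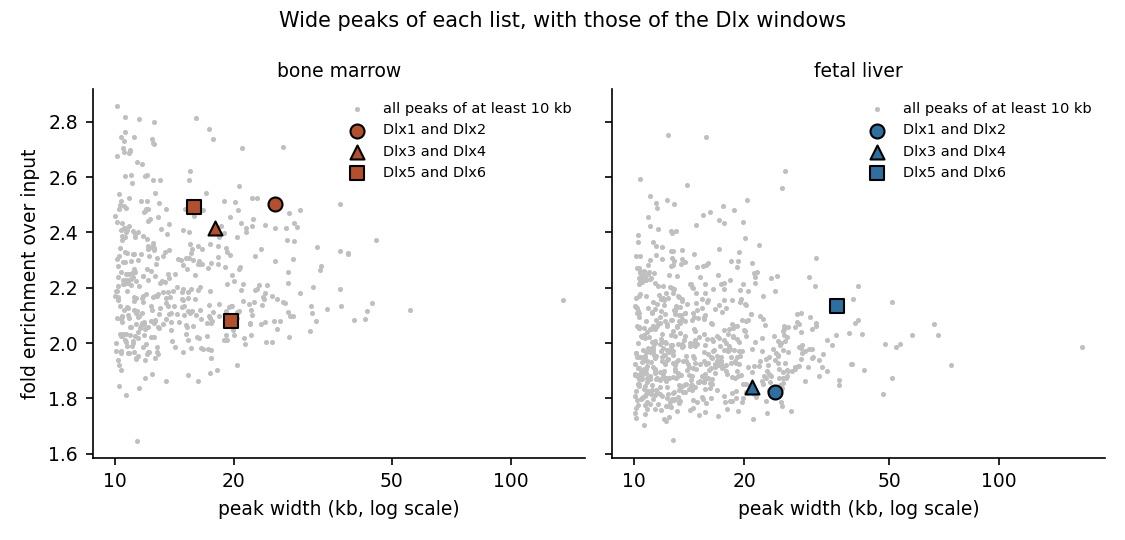
Width (x axis, kb, log scale) and authors' fold enrichment over input (y axis) of every peak of at least 10 kb in the bone marrow list (left) and the fetal liver list (right), with the peaks of the Dlx pairs as large symbols. In bone marrow 3 of the 4 Dlx symbols lie in the upper part of the cloud, and in fetal liver those of Dlx1 and Dlx2 and of Dlx3 and Dlx4 lie in its lower part.

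The direction of the coverage ratio depended on the score of the peaks at Dlx3 and Dlx4, and under 1 of the cuts at Dlx5 and Dlx6. When only peaks with a −log10 q of 2 or more were kept, all 5 bone marrow peaks and 0 of 3 fetal liver peaks were left at Dlx1 and Dlx2. At Dlx3 and Dlx4 5 of 8 bone marrow peaks and 0 of 13 fetal liver peaks were left. At Dlx5 and Dlx6 1 of 3 bone marrow peaks and 1 of 5 fetal liver peaks were left. That value was passed by 26.5% of all bone marrow peaks and 15.2% of all fetal liver peaks. The ratio at Dlx5 and Dlx6, bone marrow over fetal liver, then turned to 7.67, which set 1 bone marrow peak of 15.9 kb against 1 fetal liver peak of 2.07 kb at another place. With peaks of a fold enrichment of at least 2 the ratio at Dlx5 and Dlx6 was 0.798, close to that of all peaks, and the ratio at Dlx3 and Dlx4 turned to 32.5. The greater fetal liver coverage at Dlx3 and Dlx4 thus lay in peaks of low score. A fold cut of 2 lies above the median of all fetal liver peaks, 1.93, and below that of all bone marrow peaks, 2.12. It therefore removed a larger share of the fetal liver list, and the ratios after it were not read as a trait of the Dlx pairs. Scores depend on read depth, which is unknown here, and the part of depth in these differences was not tested.

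Set among all marked regions of the genome, the Dlx domains were wide, and that of Dlx1 and Dlx2 was filled to a similar length in both lists. Joining peaks of either list within 3 kb gave 22283 regions, of which 41.6% held bases of both lists. The Dlx windows held 11 of these regions, 5 with bases of both lists, 1 of bone marrow alone and 5 of fetal liver alone. By width, the main region ranked 101st at Dlx5 and Dlx6, 151st at Dlx1 and Dlx2 and 634th at Dlx3 and Dlx4. Among regions of at least 20 kb, a limit set after seeing the values, 99.4% held bases of both lists, as did the 3 Dlx regions of that width. The region of Dlx3 and Dlx4 passed 20 kb only through fetal liver, with 21.1 kb, against 19.8 kb in bone marrow. Its place among the wide regions therefore rests on the fetal liver list. Bone marrow peaks covered at least as many bases as fetal liver peaks in 12.6% of the 693 wide regions of both lists, and in 1 of the 3 Dlx regions, that of Dlx1 and Dlx2. The outer edges of the lists lay within 1 kb on both sides in 17.6% of them, and again in that of Dlx1 and Dlx2. The region of Dlx3 and Dlx4 missed this limit of 1 kb, which was also set after seeing the values, by its right edges alone, which were 1021 bp apart. Within 2 kb on both sides lay 36.2% of the wide regions and 2 of the 3 Dlx regions.

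The ratio of covered bases in these main regions was 1.04 at Dlx1 and Dlx2, 0.822 at Dlx5 and Dlx6 and 0.888 at Dlx3 and Dlx4. The median of the 693 regions was 0.762, and 25% of them lay above 0.897. The region of Dlx1 and Dlx2 stood above 90.3% of them, that of Dlx3 and Dlx4 above 73.5% and that of Dlx5 and Dlx6 above 59.2%. These are values of the main regions. The other shared regions of Dlx3 and Dlx4, 13.6 and 16.2 kb wide and so outside the 693, had ratios of 0.654 and 0.703. Its whole window, which also holds regions of fetal liver alone, had 0.737. These values lay below that median, but the median is of wide regions and is not a like measure. By whole windows Dlx3 and Dlx4 stood below Dlx5 and Dlx6, and by main regions above it.

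**Figure D4:**
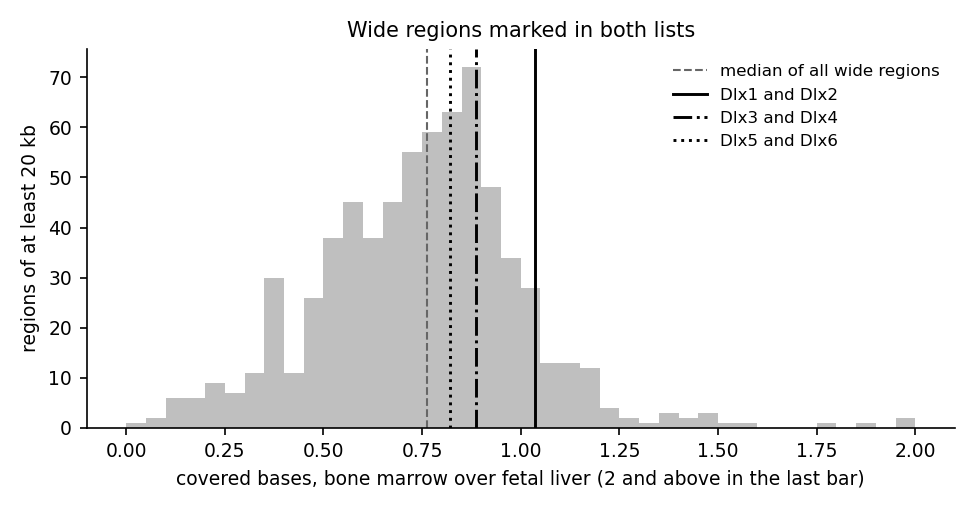
Number of regions of at least 20 kb marked in both lists (y axis) by the ratio of covered bases, bone marrow over fetal liver (x axis; values of 2 and above are in the last bar), with lines for the median (0.762) and the main regions of the 3 Dlx pairs. The line of Dlx1 and Dlx2 (1.04) lies in the right part of the distribution, and those of Dlx3 and Dlx4 (0.888) and Dlx5 and Dlx6 (0.822) lie closer to its centre.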

How the data were processed

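Immunoprecipitation and input samples of 2 cell types, 4 samples in all, were grouped by their titles, with 1 sample in each group. The inputs served as controls for peak calling. Tools listed in the submitters' processing notes are MACS2 2.1.0, BWA 0.5.7 and Picard, with the build mm9, and no settings. The deposited fold column is a ratio over input that the authors' caller averaged over each peak, the deposited significance columns are −log10 p and −log10 q, and the deposited score column was not used. The depth is unknown.

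Peaks overlapping a window by at least 1 bp were taken. Coverage was clipped to the window, peaks of a list at most 3 kb apart were joined, and bins of 5 kb were counted on a grid common to the genome, with Python 3.11.15, numpy 2.4.6 and pandas 2.3.3. The interval code was tested on simulated data, with every value recovered in 20 of 20 pairs of lists. Figures were drawn with matplotlib 3.10.9. All 6 members were named. The planned comparison of Dlx proteins is not analysed here. The members, windows and comparisons were chosen with earlier results of these data known, and the limits of 20 kb for wide regions and 1 kb for edges after seeing the values. Coordinates are counted from 1.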

Additional observations from a re-analysis of the deposited data

How the results depend on the processing

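No paired analysis was possible because each cell type has a single list. Bone marrow values under a reduced fetal liver list were left out. Of 118 alternative values, 82 stayed within 1.5 times the reported value with the direction of a ratio kept. Another 33 moved further and 3 turned a ratio, and the cause was not tested. The 82 include the ratios from whole peak lengths, which could not move because no peak crossed a window edge. At a −log10 q of at least 2, fetal liver coverage and widest domain were 0 kb with 0 peaks at Dlx1 and Dlx2 and at Dlx3 and Dlx4, where no ratio could be formed, and 5 bone marrow peaks remained at Dlx3 and Dlx4. At Dlx5 and Dlx6 coverage and widest domain were then 15.9 kb in bone marrow, against 2.07 kb in fetal liver, with 1 peak each and a ratio, bone marrow over fetal liver, of 7.67. A fold enrichment of at least 2 gave fetal liver coverage of 10.4 kb, a widest domain of 12.6 kb and a ratio of 3.54 at Dlx1 and Dlx2, and 1.06 kb, 0.57 kb, 2 peaks and 32.5 at Dlx3 and Dlx4; at Dlx5 and Dlx6 the ratio was 0.798, with 44.8 kb covered in fetal liver. Reducing the fetal liver list to the number of bone marrow peaks left 6 fetal liver peaks at Dlx3 and Dlx4. Reducing it to their covered length, an alternative added after seeing the data, gave ratios of 3.54 at Dlx1 and Dlx2, 4.20 at Dlx3 and Dlx4 and 0.798 at Dlx5 and Dlx6. Peaks of at least 1 kb, also added later, numbered 3 in bone marrow at Dlx1 and Dlx2, and 4 in bone marrow and 6 in fetal liver at Dlx3 and Dlx4. Windows widened by 20 kb on each side raised fetal liver coverage at Dlx3 and Dlx4 to 75.4 kb. Joined only where peaks touch, the widest domain was 25.4 kb in bone marrow, against 24.4 kb in fetal liver at Dlx1 and Dlx2, and 19.7 kb in bone marrow at Dlx5 and Dlx6. Joined within 10 kb, it was 57.6 kb in bone marrow, against 166.6 kb in fetal liver at Dlx3 and Dlx4. Bins filled from 1 base numbered 11 in bone marrow and 16 in fetal liver at Dlx3 and Dlx4. With 10 kb bins 44.4% were filled there in each list, against 27.8% in bone marrow and 44.4% in fetal liver with 5 kb bins. The ratio at Dlx1 and Dlx2 stayed above 1 in all 7 values that could be formed, the reported one included. This was partly fixed by the settings and is not read as stability. Reducing the fetal liver list could not lower the ratio. The fold cut removed no bone marrow peak there, and whole peak lengths gave the reported value. Of the ratios at Dlx3 and Dlx4 2 of 7 were above 1, and of those at Dlx5 and Dlx6 1 of 8. The unknown read depth limits every comparison between the lists.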
